A study of Mus musculus with 6 samples.

Results

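The immunity-related GTPases Irgm1, Irgm2, Igtp, Iigp1, Tgtp1 and Tgtp2 were followed in mouse liver with and without an active form of the transcription factor IRF3. These 6 genes were taken by name from a table of 20894 gene rows, whose identifiers were matched to mouse symbols in GENCODE M21, and all 6 had a row. All livers came from mice that carry the Irf3LSL-2D allele, in which Cre recombinase switches on the IRF3-2D form, and all mice received 3 g/kg ethanol by intraperitoneal injection 2 h before the liver was taken. In the IRF3-2D group, an adeno-associated virus of serotype AAV8 delivered Cre under TBG, a promoter active in hepatocytes. The Ctrl group carried the same allele and received the same kind of virus with GFP in place of Cre. Each group held 3 libraries of poly-A RNA from whole liver. The groups differ in Cre and GFP as well as in the allele's activity, and these cannot be told apart. Ethanol was given to both groups, so its effect could not be measured. In whole liver, fewer cells of a type and less RNA per cell cannot be told apart either.

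Immunity-related GTPases (IRGs) are proteins that mouse cells make under interferon, and they bind GTP and act on membranes. Those of the effector class, Iigp1 (the protein Irga6) and the Tgtp pair (Irgb6), load onto the vacuoles in which parasites such as Toxoplasma gondii and bacteria such as Chlamydia live, and help to break them open. Those of the regulatory class, Irgm1, Irgm2 and Igtp (Irgm3), sit on the membranes of the cell's own organelles and keep the effectors inactive there. Mouse IRG promoters are known to carry an interferon-stimulated response element, bound by IRF proteins and by a complex that holds STAT2 and IRF9, and often a gamma-activated site, an element of the response to interferon gamma. In mouse liver Iigp1 is also known to be made without infection, from a promoter of its own.

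The stretches upstream of the members' starts are shown first, because they carry the letters of those 2 kinds of element. They were read from RefSeq promoters on GRCm38.p6, which run from 250 bases before to 50 bases after a gene's start and were matched for 5 of the 6 members, all but Iigp1. The search covered both strands for the core of the interferon-stimulated response element, spelled GAAA, any 2 bases and GAAA again, and for TTCNNNGAA, the gamma-activated site. In the stretches below, 5′ to 3′ on the gene's own strand, capitals mark every match:

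Irgm1 (chr11:48871421-48871490, minus strand): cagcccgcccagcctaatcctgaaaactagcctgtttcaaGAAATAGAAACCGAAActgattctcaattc

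Irgm2 (chr11:58214873-58214942, plus strand): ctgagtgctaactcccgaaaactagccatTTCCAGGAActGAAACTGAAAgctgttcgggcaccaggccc

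Igtp (chr11:58199482-58199551, plus strand): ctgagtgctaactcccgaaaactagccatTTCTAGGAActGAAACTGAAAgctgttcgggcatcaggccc

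Tgtp1 (chr11:48992294-48992363, minus strand): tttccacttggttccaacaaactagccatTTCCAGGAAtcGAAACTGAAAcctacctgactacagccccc

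Tgtp2 (chr11:49064253-49064322, minus strand): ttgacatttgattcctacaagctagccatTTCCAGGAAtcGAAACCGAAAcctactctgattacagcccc

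All 5 promoters held the core of the interferon-stimulated response element, which 3.44% of all 32851 RefSeq promoters of this length hold. Irgm1 held 2 overlapping matches, GAAATAGAAA and GAAACCGAAA, which begin 30 and 24 bases before its start. The other 4 held 1 match each, beginning 34 bases before the start in Igtp, 64 in Irgm2, 70 in Tgtp2 and 77 in Tgtp1. These 4 also held a gamma-activated site, ending 2 bases upstream of the first element in each. A gamma-activated site stood in 8.30% of all RefSeq promoters, and both elements together in 0.454%. The letters TTCNNNGAA were not in the Irgm1 window. Over a global alignment of the 300 bases, the Irgm2 and Igtp promoters were 82.3% identical, those of Tgtp1 and Tgtp2 74.7%, and the other 8 pairs 55.3% to 62.7%. A match is a description of letters, and no binding was measured in these livers.

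Library totals were 12054096 to 13606973 counts in IRF3-2D and 13940893 to 14830629 in Ctrl, and levels are given as CPM, a gene's count relative to the size of its library. Library sizes were scaled with TMM factors, which were 1.12 to 1.23 in IRF3-2D and 0.822 to 0.879 in Ctrl. On this scale 3 counts equal 0.194 to 0.203 CPM in IRF3-2D and 0.234 to 0.252 CPM in Ctrl. For counting error alone, 3 counts is the 95% upper limit of a count of 0. With library totals alone the median log2 fold change of all tested genes was 0.49, against 0.03 with TMM. Irf3 itself (ENSMUSG00000003184), whose counts do not separate the allele's transcripts from others, stood at 120.1 ± 15.3 CPM in IRF3-2D and 49.8 ± 9.35 in Ctrl (SD, n = 3 each), 2.41-fold higher (adjusted p = 0.0015 by edgeR's quasi-likelihood test with Benjamini-Hochberg adjustment, as for all adjusted p-values below). Hepatocyte markers were abundant in all libraries, with a sum over 10 genes of 73260 to 86194 CPM in IRF3-2D and 142148 to 190009 CPM in Ctrl. Of these 10, Ttr was called higher (1.79-fold, adjusted p = 0.0045) and the other 9 lower, against 13.2% and 13.1% of all tested genes. With library totals alone 6 of the 9 were still lower, Apoa1 and Cps1 lost the call and Hnf4a turned to 0.05. Under that setting 5.29% of all tested genes were called lower. The part of the hepatocyte markers in the results below was not tested.

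Of the 6 members, 5 were called higher in IRF3-2D liver and none lower, where 13.2% of the 10802 tested genes were called higher and 13.1% lower. In the same 5 the lowest IRF3-2D library stood above the highest Ctrl library, which held for 23.7% of tested genes. All 6 passed the filter on low counts. The members' median log2 fold change was 1.07, against 0.03 over all tested genes. Tgtp1 had the largest change, Irgm1 and Igtp rose to an intermediate degree, Iigp1 and Irgm2 rose less than 2-fold, and Tgtp2 was not called. Summed over the members, the level was 1253 to 1393 CPM in IRF3-2D and 586.9 to 638.0 CPM in Ctrl.

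**Figure D1:**
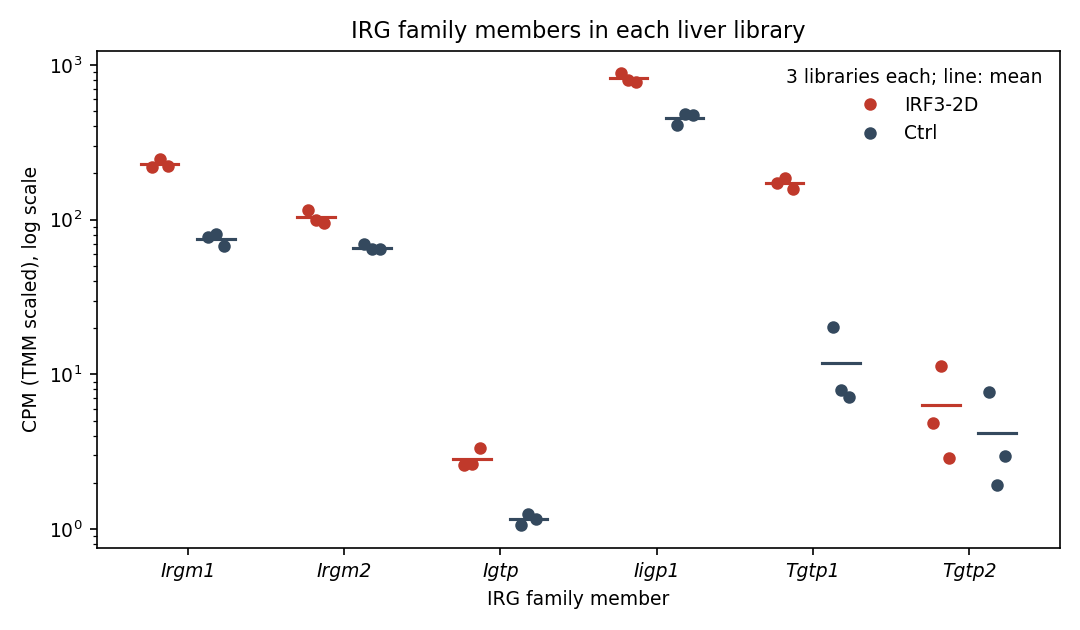
Level of each member in CPM with TMM scaling (log axis), with 1 point per library and a line at the mean of 3 libraries, IRF3-2D left of Ctrl. The groups are apart for 5 members, and overlap for Tgtp2, whose libraries span 2.88 to 11.3 CPM in IRF3-2D and 1.94 to 7.68 CPM in Ctrl.

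Among the regulatory IRGs, Irgm1 rose most. Irgm1 (ENSMUSG00000046879, chromosome 11, 48861968 to 48871683, minus strand, GRCm38), whose loss makes mice prone to many intracellular infections, had 217, 245 and 221 CPM in the IRF3-2D libraries and 77.4, 81.0 and 67.5 CPM in the Ctrl libraries. Its replicates lay close together and the groups were far apart. The mean was 228 ± 15.1 CPM in IRF3-2D and 75.3 ± 6.98 CPM in Ctrl (SD, n = 3 each), a 3.02-fold rise (log2 fold change 1.60, SE 0.10, adjusted p = 0.00011). Of all tested genes 3.44% had a larger log2 fold change.

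Irgm2 (ENSMUSG00000069874, chromosome 11, 58199618 to 58222782, plus strand), a regulator found at the Golgi, had 116, 99.7 and 94.9 CPM in IRF3-2D and 69.4, 64.2 and 64.4 CPM in Ctrl. The groups did not overlap, and the mean was 103.6 ± 11.1 CPM in IRF3-2D and 66.0 ± 2.93 CPM in Ctrl (SD, n = 3 each). The rise was 1.57-fold (log2 fold change 0.65, SE 0.10), with an adjusted p of 0.0035. Igtp (ENSMUSG00000078853, chromosome 11, 58199556 to 58207591, plus strand), a regulator of the endoplasmic reticulum and of lipid droplets, was the least counted member, with 40, 39 and 51 counts in IRF3-2D and 13, 15 and 15 counts in Ctrl. The groups did not overlap, at 2.59, 2.64 and 3.34 CPM in IRF3-2D and 1.06, 1.26 and 1.17 CPM in Ctrl, 2.44-fold higher (log2 fold change 1.29, SE 0.34, adjusted p = 0.032). The call of Igtp was lost without any 1 of the 6 libraries (log2 fold change 1.15 to 1.35, adjusted p up to 0.10) and with no filter on low counts (1.30, adjusted p = 0.056).

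Igtp and Irgm2 lie on the same strand and overlap: the annotated transcript Irgm2-201 starts inside Igtp, at 58199618, while the other 2 Irgm2 transcripts start at 58215008 and 58215028. Of the 31-base words of Igtp 15.9% also occur in Irgm2, so some reads could be placed under either gene. With both rows summed, a choice made after the data were seen, the pair stood at 106 ± 10.8 CPM in IRF3-2D and 67.1 ± 2.84 CPM in Ctrl (SD, n = 3 each), 1.58-fold higher (log2 fold change 0.66, SE 0.10, adjusted p = 0.0030). The sum holds nearly only Irgm2 counts, so it says little about Igtp.

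Among the effector IRGs, Iigp1 was the most abundant member and Tgtp1 the one that changed most. Iigp1 (ENSMUSG00000054072, chromosome 18, 60376027 to 60392634, plus strand) had 880, 795 and 774 CPM in IRF3-2D and 411, 482 and 471 CPM in Ctrl. The lowest IRF3-2D library was well above the highest Ctrl library. Its mean was 816 ± 56.5 CPM in IRF3-2D and 454.5 ± 38.0 CPM in Ctrl (SD, n = 3 each), a 1.80-fold rise (log2 fold change 0.84, SE 0.10, adjusted p = 0.0013). The gene-level counts do not separate transcripts from its different promoters.

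Tgtp1 (ENSMUSG00000078922, chromosome 11, 48985327 to 48994172, minus strand) had 171, 184 and 158 CPM in IRF3-2D and 20.3, 7.99 and 7.19 CPM in Ctrl. Every IRF3-2D library was far above every Ctrl library, and among the controls replicate 1 stood above the other two. The mean was 171 ± 13.2 CPM in IRF3-2D and 11.8 ± 7.33 CPM in Ctrl (SD, n = 3 each). The rise was 14.5-fold (log2 fold change 3.86, SE 0.39, adjusted p = 0.00068), and 0.565% of tested genes had a larger log2 fold change. Without Ctrl replicate 1 the log2 fold change was 4.49.

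Tgtp2 (ENSMUSG00000078921, chromosome 11, 49057194 to 49064206, minus strand), its close copy in the same cluster, had 4.85, 11.3 and 2.88 CPM in IRF3-2D and 7.68, 1.94 and 2.97 CPM in Ctrl. The groups overlapped, and the difference did not pass the test (log2 fold change 0.60, SE 0.65, adjusted p = 0.54). Its sign turned without IRF3-2D replicate 2, to -0.12. A change of Tgtp2 was not detectable in these counts.

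Reads cannot be assigned to 1 of the 2 Tgtp genes with certainty: 84.4% of the 31-base words of Tgtp1 and 90.5% of those of Tgtp2 also occur in another gene, mostly in each other. The estimated split put 94.2% to 98.2% of the pair's counts on Tgtp1 in IRF3-2D and 70.8% to 80.5% in Ctrl. Summed before the fit, the pair had 2725, 2889 and 2454 counts in IRF3-2D and 342, 118 and 130 counts in Ctrl. That is 178 ± 17.5 CPM in IRF3-2D and 16.0 ± 10.3 CPM in Ctrl (SD, n = 3 each), an 11.1-fold rise that does not depend on the split (log2 fold change 3.47, SE 0.41, adjusted p = 0.0013). Ctrl replicate 1 set the spread of the controls here too, and without it the log2 fold change of the pair was 4.14.

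**Figure D2:**
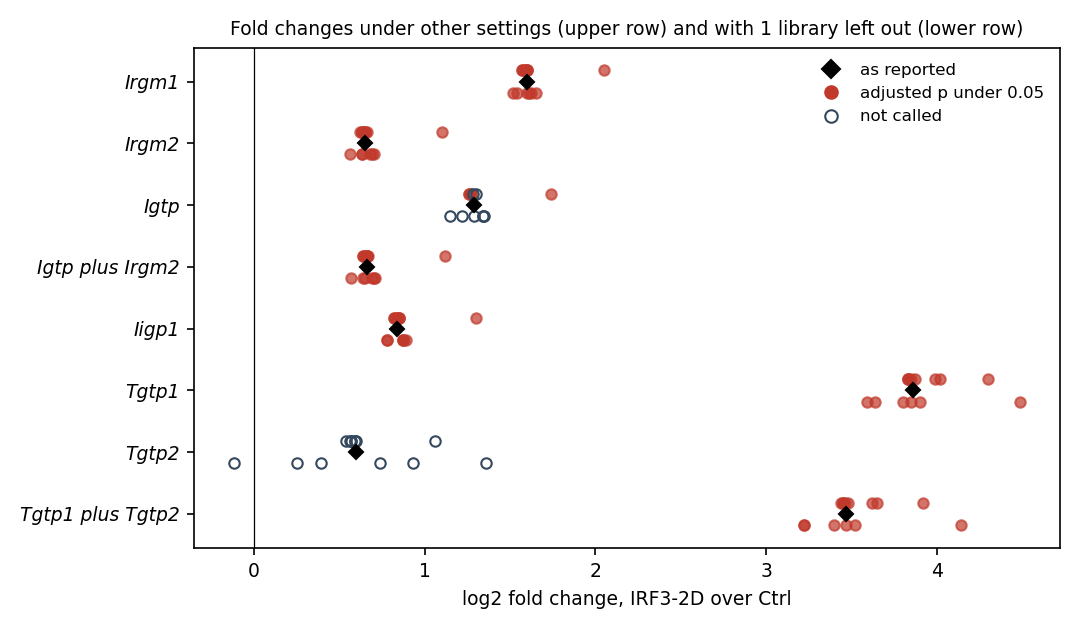
Log2 fold change of each member and of both summed pairs, IRF3-2D over Ctrl: diamonds as reported, the upper row of each gene under other tools, scalings, filters and the replicate block, the lower row with 1 library left out. Irgm1, Irgm2, Iigp1, Tgtp1 and both sums were called under every setting run, Igtp under none with a library left out, and Tgtp2 under none.

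The share of all tested genes called higher under these settings, the block aside, was 12.4% with DESeq2, 13.2% with limma-voom, 12% with RLE factors, 12.4% with upper-quartile factors, 41.7% with library totals alone, 8.19% with no filter and 16.9% with only genes of mean count 50 or more. Without IRF3-2D replicates 1, 2 and 3 in turn it was 7.8%, 7.68% and 9.88%, and without Ctrl replicates 1, 2 and 3 it was 11.7%, 9.53% and 8.58%.

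To compare genes with each other, counts were divided by the length of the longest protein-coding transcript and scaled within each library to TPM, a level per transcript length. In IRF3-2D liver the order was Iigp1 at 566 ± 51.3 TPM, Irgm1 at 218 ± 28.0, Tgtp1 at 132 ± 18.4, Irgm2 at 63.5 ± 7.73, Tgtp2 at 5.03 ± 3.79 and Igtp at 3.04 ± 0.326 (SD, n = 3 each). The first 4 kept this order in each IRF3-2D library, while Tgtp2 and Igtp changed places and did not differ beyond their spread. In Ctrl liver the order was Iigp1 at 208 ± 9.04 TPM, Irgm1 at 47.7 ± 4.57, Irgm2 at 26.9 ± 2.99, Tgtp1 at 6.13 ± 4.18, Tgtp2 at 2.21 ± 1.73 and Igtp at 0.823 ± 0.0186, the same in all 3 libraries, with overlapping ranges for the Tgtp pair. Tgtp1 thus stood above Irgm2 in every IRF3-2D library and below it in every Ctrl library. Its place depends on the length used: with the median length of its coding transcripts, 2 of which are short, Tgtp1 came to 380 TPM in IRF3-2D, above Irgm1 at 177 TPM. The low place of Igtp holds for the deposited counts, in which some genes that most cells use stand near 0: Gabarap had at most 5 counts and Sqstm1 at most 10 in any library.

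The make-up of the family's transcripts shifted with these unequal rises. Iigp1 held 59.4% to 63.2% of the members' counts in IRF3-2D and 70.0% to 76.7% in Ctrl. The Tgtp pair held 12.7% to 14.6% in IRF3-2D and 1.56% to 4.76% in Ctrl, and Irgm1 15.6% to 18.3% in IRF3-2D and 11% to 13.2% in Ctrl. The log2 ratio of the Tgtp pair to Irgm1, an effector over a regulator, was -0.36 ± 0.08 in IRF3-2D and -2.41 ± 0.83 in Ctrl (SD, n = 3 each). The log2 ratio of Irgm1 to Iigp1, a regulator over an effector, was also higher, at -1.84 ± 0.16 in IRF3-2D and -2.59 ± 0.20 in Ctrl. Between the regulators, the log2 ratio of Irgm1 to Irgm2 was 1.14 ± 0.21 in IRF3-2D and 0.19 ± 0.14 in Ctrl. By contrast, the log2 ratio of Irgm2 to Iigp1 was -2.98 ± 0.05 in IRF3-2D and -2.78 ± 0.19 in Ctrl, a difference of -0.20, about as large as the SD of the controls. In none of these ratios did the groups overlap, though for Irgm2 to Iigp1 the nearest libraries stood at -2.92 in IRF3-2D and -2.91 in Ctrl. These ratios compare counts within a library and so are free of the scaling between libraries. They were chosen with the values known, and no test was made of them.

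**Figure D3:**
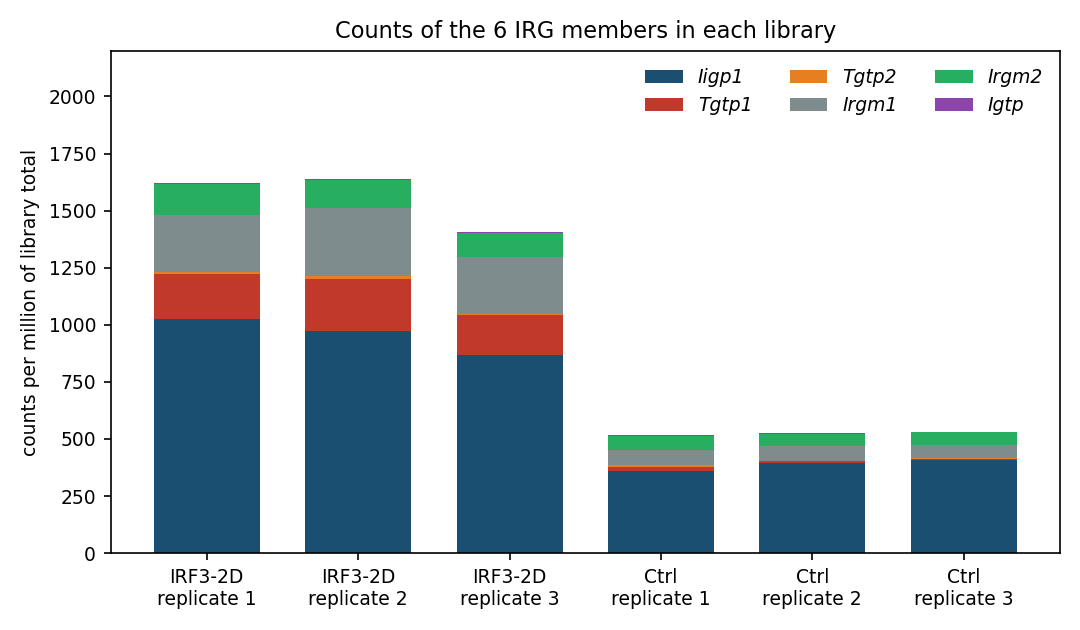
Counts of the 6 members as CPM of each library's total, without TMM scaling, stacked by gene. The bars reach 1405 to 1638 in the IRF3-2D libraries and 515 to 530 in the Ctrl libraries, with Iigp1 the largest part of each bar.

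The members lie in 3 groups of IRG genes on the genome. The larger cluster on chromosome 11 spans 235 kb (48861968 to 49096974) and holds Irgm1, Tgtp1 and Tgtp2 with 5 other IRG genes of the table. Igtp and Irgm2 lie together within 23.2 kb farther along the same chromosome. Iigp1 lies on chromosome 18 with Gm4951, Gm4841 and F830016B08Rik within 181 kb.

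The list of other IRG family genes held 11, of which 9 were in the table and 8 passed the filter. Of the 8, 4 were called higher and 1 lower, against 13.2% and 13.1% of all tested genes, with a median log2 fold change of 1.13. Gm5431, next to Irgm1, had 9.77, 11.3 and 8.06 CPM in IRF3-2D and 2.37, 1.35 and 1.80 CPM in Ctrl, a 5.25-fold rise (adjusted p = 0.0014). The groups were far apart, although 47.2% of the words of Gm5431 are shared with other genes. 9930111J21Rik2, between Tgtp1 and Tgtp2, rose 1.94-fold (adjusted p = 0.0039), and 9930111J21Rik1 had 4.72, 6.57 and 2.69 CPM in IRF3-2D and 1.88, 1.26 and 2.50 CPM in Ctrl, which did not pass (log2 fold change 1.30, adjusted p = 0.069). These are again close copies, with 69.5% and 88.3% of their words shared. Gm12185 had 17, 10 and 12 counts in IRF3-2D and 6, 5 and 1 counts in Ctrl, and did not pass (log2 fold change 1.36, adjusted p = 0.18). On the genome it overlaps Tgtp1 on the same strand.

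Ifi47 (ENSMUSG00000078920), the IRG gene after Tgtp2, which was added after its values were seen, had 140, 109 and 95.3 CPM in IRF3-2D and 49.8, 37.1 and 32.4 CPM in Ctrl. It rose 2.88-fold (log2 fold change 1.53, SE 0.20, adjusted p = 0.0020), close to Irgm1 in size. Neither motif was in the RefSeq promoter window of Ifi47, nor in those of Gm5431 and 9930111J21Rik2, which were also called higher. The window of Gm12185, which was not called, held both motifs, and that of 9930111J21Rik1, also not called, held only the core of the interferon-stimulated response element. The match in 9930111J21Rik1 lay downstream of the gene's start, at positions 27 to 36.

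**Figure D4:**
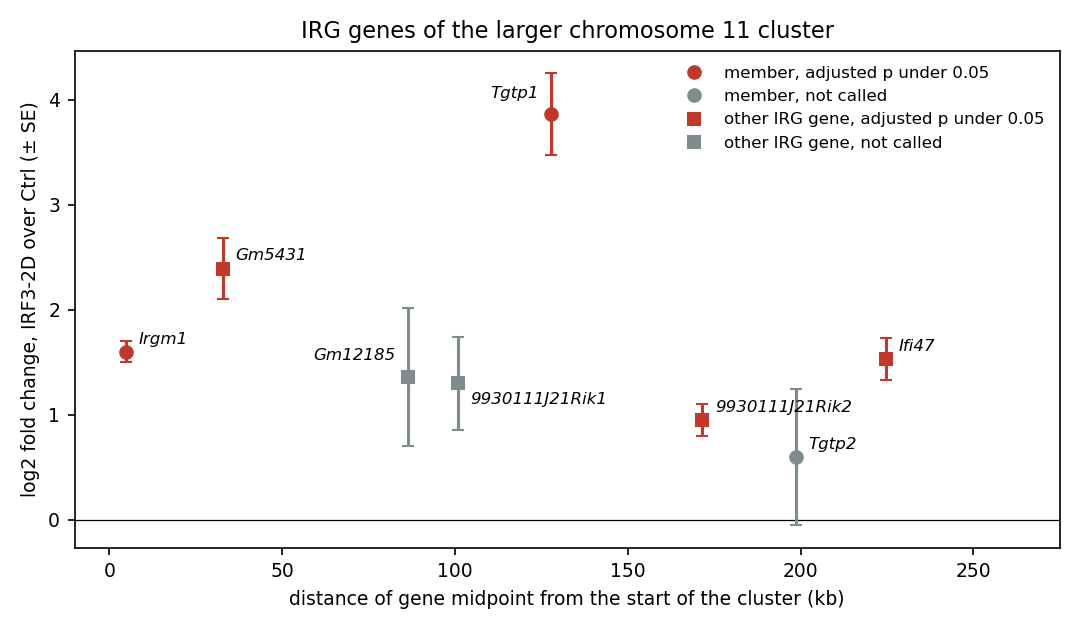
Log2 fold change of IRF3-2D over Ctrl (± SE) for 8 IRG genes of the larger chromosome 11 cluster, against the distance of each gene's midpoint from the start of the cluster in kb. Tgtp1 at 3.86 stands above the other genes, Tgtp2 at 0.60 has an SE bar that crosses 0, and the other 6 lie between 0.95 and 2.39.

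On chromosome 18 the genes did not move alike. Gm4951 rose 1.36-fold to 158 ± 8.74 CPM in IRF3-2D, against 116 ± 8.11 CPM in Ctrl (SD, n = 3 each, adjusted p = 0.011), a call lost without IRF3-2D replicate 1 (log2 fold change 0.41). Gm4841 rose 2.54-fold (adjusted p = 0.041), a call lost without any 1 of the IRF3-2D libraries or Ctrl replicate 2 or 3 (log2 fold change 1.10 to 1.46). F830016B08Rik was called lower, at 29.8 ± 1.12 CPM in IRF3-2D and 39.3 ± 5.66 CPM in Ctrl (SD, n = 3 each, log2 fold change -0.40, adjusted p = 0.047), but the call was lost under 9 of 14 alternatives. Its log2 fold change turned to 0.06 with library totals alone, where the median of all tested genes was 0.49. Of the 2 IRG relatives on chromosome 7, Irgq, known from human cells in autophagy, had a log2 fold change of 0.15 (adjusted p = 0.22), and Irgc1, a gene of the testis, had 0 counts in all 6 libraries.

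Other genes in and beside the clusters were taken by position alone. Inside the larger cluster, Psme2b, which overlaps 9930111J21Rik1 on the same strand, had 59, 43 and 12 counts in IRF3-2D and 9, 4 and 14 counts in Ctrl, with overlapping groups (log2 fold change 1.78, adjusted p = 0.11). The nearest tested non-IRG genes outside were Trim7, 9.76 kb before Irgm1 (log2 fold change -0.06, adjusted p = 0.86), and Mrpl22, 19.99 kb before Igtp (-0.10, adjusted p = 0.56), neither of which passed. Farther off, Zfp692 (0.09), Chsy3 (-0.54) and Smim3 (0.08) did not pass either (adjusted p = 0.84, 0.14 and 0.90), and Zfp62, 106 kb after Ifi47, was called lower (-0.71, adjusted p = 0.016).

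Guanylate-binding proteins, larger GTPases that act with IRGs at the vacuole, rose in most of their tested genes. Of 9 tested, 8 were called higher and none lower, against 13.2% and 13.1% of all tested genes, with a median log2 fold change of 2.23, also with Gbp9 at its lower bound. With a library left out, 6 to 8 were called higher. Gbp6 rose 7.30-fold (adjusted p = 3.8e-05), Gbp3 4.02-fold (adjusted p = 0.00017) and Gbp7 4.70-fold (adjusted p = 0.0011). Gbp9 had 94, 222 and 213 counts in IRF3-2D and 0 in every Ctrl library (adjusted p = 0.0016). The mean of its IRF3-2D libraries was at least 47.9-fold higher, with 3 counts taken for each Ctrl library. Gbp6 shares 74.2% of its words with other genes, and Gbp9 18.3%. On the genome Gbp9 overlaps Gbp4 and Gbp8 on the same strand. Gbp8, named after its values were seen, had 14 counts in Ctrl replicate 1 and 0 in all other libraries. How reads were split among these genes was not tested.

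Upstream of the family, the factors that bind the elements printed above moved in part. Of 13 tested genes for interferon receptors, JAK-STAT genes and IRF regulators, 4 were called higher and 1 lower, against 13.2% and 13.1% of all tested genes, with a median log2 fold change of 0.26. Nlrc5, a regulator of class I antigen presentation, rose 3.10-fold (adjusted p = 9.2e-05), and Stat2, a part of the complex that binds the interferon-stimulated response element, rose 3.01-fold to 127 ± 9.39 CPM in IRF3-2D, against 42.1 ± 6.30 CPM in Ctrl (SD, n = 3 each, adjusted p = 0.00025). Irf9, the DNA-binding part of that complex, rose 1.68-fold (adjusted p = 0.0017), and Irf1, which drives IRG genes in mouse cells treated with interferon gamma, rose 2.00-fold (adjusted p = 0.0031). Irf2, known as an antagonist of Irf1, fell 1.70-fold (adjusted p = 0.0041). With library totals alone, 10 of the 13 were called higher and 1 lower, where 41.7% of all tested genes were called higher and 5.29% lower.

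Of 20 interferon genes with a row, none passed the filter, so none was tested. Ifng, the strongest known inducer of the family, had 3 counts in IRF3-2D replicate 2 and 0 elsewhere. Ifnk, a type I interferon named after its values were seen, had 3, 2 and 0 counts in IRF3-2D and 0 in Ctrl. No count in any library was above 3, and 17 of the 20 had no count in any library. Like the low place of Igtp, this holds for the deposited counts, in which some genes that most cells use stand near 0.

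Of the machinery that IRGs need or call on, the ATG8 conjugation system, which places IRGs correctly in mouse cells, had 11 tested genes, of which none was called higher and 4 lower, against 13.2% and 13.1% of all tested genes. Gabarapl1, an ATG8 protein, fell 1.98-fold to 250 ± 26.2 CPM in IRF3-2D, against 496 ± 52.0 CPM in Ctrl (SD, n = 3 each, adjusted p = 0.0014). Atg3, an enzyme of the conjugation, fell 1.51-fold (adjusted p = 0.0046), Map1lc3a 2.16-fold (adjusted p = 0.018) and Gabarapl2 1.32-fold (adjusted p = 0.045). With library totals alone Gabarapl1 was the only gene of these 4 still called lower (log2 fold change -0.54), and Gabarapl2 turned to 0.06. In that setting 2 genes of the list were called higher, Atg12 and Atg5, named after their values were seen. Of all tested genes 41.7% were then called higher and 5.29% lower, with a median log2 fold change of 0.49. The calls of Map1lc3a and Gabarapl2 were also lost without some single libraries, 2 and 5 of the 6, and Gabarapl2 lost its call under 9 of 14 alternatives in all, limma-voom among them (adjusted p = 0.052).

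Of 8 tested adaptors that bind ubiquitin or exposed sugars at damaged vacuoles, 3 were called higher and none lower, against 13.2% and 13.1% of all tested genes, and 1 to 3 were higher with a library left out. Lgals9, a galectin, rose 1.57-fold to 1025 ± 41.2 CPM in IRF3-2D, against 654 ± 13.4 CPM in Ctrl (SD, n = 3 each, adjusted p = 0.0014), and the autophagy receptor Optn rose 1.30-fold (adjusted p = 0.013), a call lost without IRF3-2D replicate 1 (log2 fold change 0.35). Lgals3, a galectin of macrophages, rose 2.67-fold (adjusted p = 0.030), a call lost under 7 of 14 alternatives, among them 5 of the 6 that leave out a library.

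**Figure D5:**
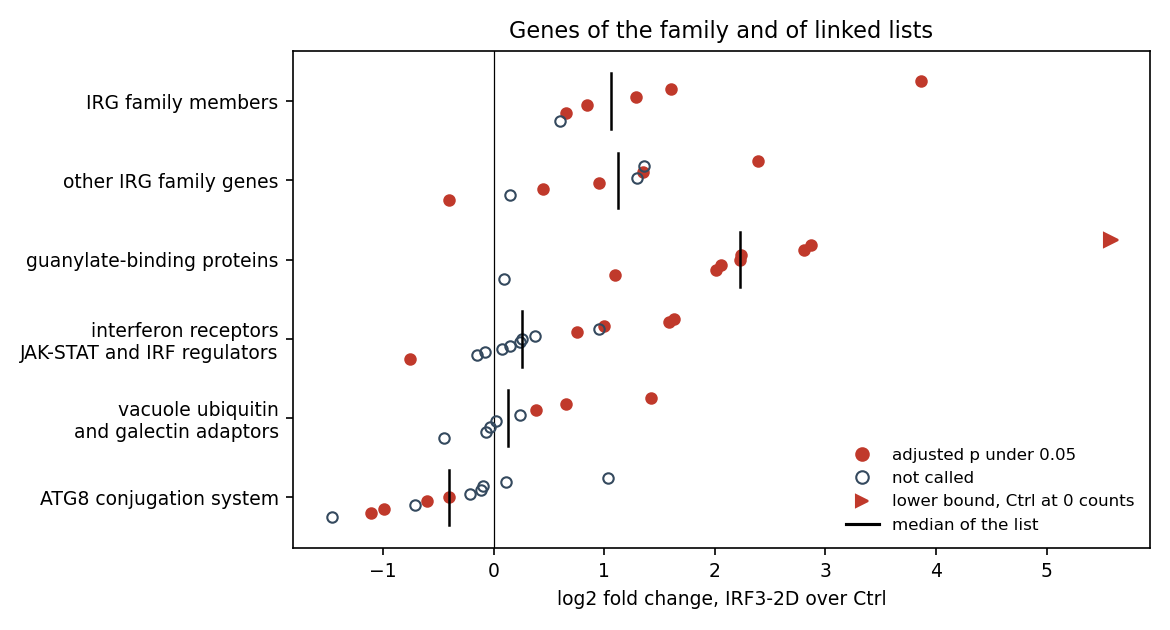
Log2 fold change of IRF3-2D over Ctrl for the tested genes of the IRG members and of 5 linked lists, with filled points for an adjusted p under 0.05, a triangle for Gbp9 at its lower bound and a line at each list's median. Medians run from 2.23 for the guanylate-binding proteins to -0.40 for the ATG8 conjugation system. Those of the other IRG genes and of the members lie between, at 1.13 and 1.07. With library totals alone the ATG8 median was 0.06, where the median log2 fold change of all tested genes was 0.49.

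IRGs are made by many cell types under interferon, so markers of other liver cells were read beside them. Among Kupffer cell and macrophage markers 11 were tested, with 4 higher and 0 lower. For this list and those below, the shares of all tested genes were 13.2% called higher and 13.1% lower. The 12 listed genes, Mpeg1 among them, summed to 924 to 1255 CPM in IRF3-2D and 514 to 612 CPM in Ctrl. The highest count of any listed gene in a library was 8672, against 3283 for Cd5l in IRF3-2D replicate 1. The sum thus rests unevenly on its genes. Higher were Mpeg1, itself known to respond to interferon (4.14-fold, adjusted p = 0.00059), C1qb (1.62-fold, adjusted p = 0.011), Cd5l (1.56-fold, adjusted p = 0.031) and C1qa (1.39-fold, adjusted p = 0.046), while Clec4f and Vsig4, which define Kupffer cells, did not pass (adjusted p = 0.073 and 0.29). With library totals alone, 8 of the 11 were higher, Clec4f and Vsig4 among them (adjusted p = 0.0031 and 0.014). Under that setting 41.7% of all tested genes were called higher and 5.29% lower. T and NK cell markers summed to 10.3 to 14.0 CPM in IRF3-2D and 7.32 to 12.9 CPM in Ctrl, with 0 of 5 tested called and Cd3g at 0 throughout. Monocyte and dendritic cell markers summed to 7.08 to 31.2 CPM in IRF3-2D and 4.63 to 8.66 CPM in Ctrl, with 1 of 5 called, Ly6c2 (8.21-fold higher, adjusted p = 0.014). Endothelial markers summed to 252 to 337 CPM in IRF3-2D and 358 to 389 CPM in Ctrl, with 4 of 8 called lower (Kdr, Tie1, Ehd3 and Oit3), none of them with library totals alone. B cell markers summed to 4.195 to 6.02 CPM in IRF3-2D and 1.80 to 5.31 CPM in Ctrl, with Pax5 at 0. Neutrophil markers summed to 5.05 to 8.47 CPM in IRF3-2D and 4.96 to 9.85 CPM in Ctrl, with Mpo at 0. Cholangiocyte markers summed to 13.4 to 22.8 CPM in IRF3-2D and 16.6 to 35.1 CPM in Ctrl, and none of these 3 lists had a call (0 of 3, 0 of 2 and 0 of 5 tested). Stellate cell markers summed to 125 to 166 CPM in IRF3-2D and 136 to 190 CPM in Ctrl, with Reln called lower of 6 tested and Pdgfrb at 0. With library totals alone, Clec4g, Col1a1 and Spp1, of the endothelial, stellate and cholangiocyte lists, were called higher, and Reln was not called. The marker genes that were called are named with their values known. The part of any of these cells in the levels of the IRG genes was not tested.

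By root-mean-square difference, the tested genes whose levels over the 6 libraries ran most like the mean of the members were Btc, Vmn1r85, Blcap, Rnf135 and Vps26c. The difference was taken on the log2(CPM + 0.5) scale after centring on Ctrl, and it was 0.067 for Btc, a growth factor of the EGF family, and 0.113 for Vps26c, a part of an endosomal sorting complex. Rnf135, a ubiquitin ligase of the RIG-I pathway (0.092), rose by 1.44 on this scale, where the members' mean rise was 1.43. Vmn1r85 had 28, 35 and 27 counts in IRF3-2D and 6, 4 and 4 counts in Ctrl, so its place rests on few reads. With 2 groups of 3, likeness mostly reflects the size of the difference between the groups.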

How the data were processed

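RNA of 6 liver libraries was poly-A selected and sequenced from strand-specific libraries, as the labels' protocols state. The deposited values are estimated counts per gene, all whole numbers, without normalization. Per the submitters' processing notes, Salmon 1.2.1 was used and GRCm38 and mm10 are named. Annotation, strand setting and filters: not given in the sources used here. Estimated counts of genes with shared sequence depend on how reads were split. Groups and replicate numbers came from sample titles, and columns were matched by library name. Whether each library is a different animal is not stated in the labels, and the p-values reflect only how these libraries vary, which could be technical variation.

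The counts were used as deposited. Genes were filtered with filterByExpr, scaled with TMM and tested with edgeR 4.0.16 (quasi-likelihood F-test, group as the only term, R 4.3.3), adjusting by Benjamini-Hochberg over 10802 genes at 0.05. SEs come from the log2 fold change and F. Alternatives were DESeq2 1.42.0, limma-voom (limma 3.58.1), RLE, upper-quartile and no scaling factors, other filters, a replicate block and leaving out each library. No replicate pair agreed within sampling noise (chi-square per degree of freedom 18.9 to 110). Of the rows, 20817 had a symbol in GENCODE M21. Named genes were the members, other IRG genes with a row, Irf3, and from each list all called genes up to 5, or else the 4 with the smallest adjusted p, and the 5 tested genes most like the members over the libraries. Members and lists were chosen with earlier results of these data known.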

Additional observations from a re-analysis of the deposited data

How the results depend on the processing

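Irgm1, Irgm2, Iigp1, Tgtp1 and the summed Tgtp pair kept their direction and call under all 14 alternatives, and so did the sum of Igtp and Irgm2. Igtp kept its direction in each of the 13 that gave a value (a mean count of at least 50 left it out), but lost its call with no filter on low counts (1.30), the replicate block (1.28) and each library left out (1.15 to 1.35). Tgtp2 alone was not called in any (0.60 as its own row, -0.12 to 1.36 with a library left out). With library totals alone, 4500 of all tested genes were higher and 571 lower, as were 2 genes and 1 gene of the ATG8 list, 10 of the receptor and regulator list higher, 6 of the adaptor list higher, and 0 of the other IRG genes lower. Leaving out a library gave 851 to 1312 genes higher and 920 to 1363 lower, 4 members higher, 2 to 4 other IRG genes higher and 0 to 1 lower, 2 to 4 ATG8 genes lower and 1 to 3 adaptors higher. The other IRG genes called lower numbered 0 with limma-voom, no filter and the replicate block. The deviations of same-numbered libraries from their group means had correlations of 0.0855, -0.0716 and 0.0671. Libraries numbered 1 and 3 correlated best with their own number, and those numbered 2 did not. With 3 libraries in each group, these values cannot decide whether the numbers pair the samples. With the replicate block 1038 genes were higher and 1128 lower. Igtp aside, Gm4841 (1.38), Lgals3 (1.33), Gabarapl2 (-0.39) and F830016B08Rik (-0.39) lost their calls under it, and 7 guanylate-binding proteins were called higher. With the median transcript length, levels in IRF3-2D and Ctrl were 177 and 40.8 TPM for Irgm1, 50.4 and 22.4 for Irgm2, 2.62 and 0.747 for Igtp, 471 and 182 for Iigp1, and 380 and 18.6 for Tgtp1. The causes of these changes were not tested. Depth limits genes with few counts, such as Igtp (13 to 51 in a library) and Gm12185 (1 to 17).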
